A study of Mus musculus with 18 samples.

Results

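Tal1, Lyl1, Lmo2 and Ldb1 encode 4 parts of a transcription factor complex of blood stem and progenitor cells, and the open chromatin around these 4 genes was followed across 6 groups of mouse blood cells. A region belonged to a gene when its summit, the point of highest signal, lay in the gene body or within 50 kb of it on the mm10 build. The rule found 67 regions among the 94178 regions of the whole series. Lyl1 had 24 of them, Lmo2 18, Tal1 13 and Ldb1 12.

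The assay was ATAC-seq, in which the transposase Tn5 cuts into accessible DNA, so a region marks open chromatin and not the level of a transcript. The 18 samples formed 6 groups, and each group had 1 pooled list of regions with no values per sample. Wild-type haematopoietic stem cells (HSC, 2 samples) and cells labelled HPC, the progenitors of the study (4 samples), came from mice of 8 weeks. Kmt2c knockout HSC (2 samples) and knockout HPC (2 samples) came at the same age from mice labelled Kmt2c f/f; Vav-Cre, in which the Vav promoter drives Cre in blood cells and Kmt2c encodes a histone H3 lysine methyltransferase. HSC of wild-type mice of 16 weeks had received PBS as the vehicle (4 samples) or 150 mg/kg of 5-fluorouracil (5-FU), which is toxic to cycling cells (4 samples), in both cases as 3 doses spaced 3 weeks apart. The labels name no sort markers, do not say whether samples came from separate animals, and do not give the deleted part of Kmt2c, so the lists could not be checked for the deletion.

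Tal1 and Lyl1 are related basic helix-loop-helix proteins that bind the DNA motif called an E-box together with an E protein such as Tcf3. Lmo2 binds no DNA itself and bridges them to GATA factors, and Ldb1 joins Lmo2 to further copies of the complex and can bring distant DNA elements together. The complex is required to form blood stem cells. Tal1 is known for an enhancer downstream of the gene that is active in stem and endothelial cells and for an erythroid enhancer farther downstream, and Lmo2 is known to use more than one promoter.

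The RefSeq promoter table of GRCm38.p6 holds 6 starts for 3 of the members and no entry for Lmo2. The 250 bases before 4 of these starts are shown because the accessible regions described next lie at or beside them. They are chr4:115056176-115056425 on the plus strand, chr8:84701207-84701456 on the plus strand, and chr19:46045312-46045561 and chr19:46039622-46039871 on the minus strand, each written from 5′ to 3′.
Tal1, first start: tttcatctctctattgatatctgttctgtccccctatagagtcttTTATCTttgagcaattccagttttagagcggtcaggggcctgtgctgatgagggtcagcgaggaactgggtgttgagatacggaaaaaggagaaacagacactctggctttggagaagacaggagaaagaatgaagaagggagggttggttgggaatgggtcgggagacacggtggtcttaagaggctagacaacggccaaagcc
Lyl1: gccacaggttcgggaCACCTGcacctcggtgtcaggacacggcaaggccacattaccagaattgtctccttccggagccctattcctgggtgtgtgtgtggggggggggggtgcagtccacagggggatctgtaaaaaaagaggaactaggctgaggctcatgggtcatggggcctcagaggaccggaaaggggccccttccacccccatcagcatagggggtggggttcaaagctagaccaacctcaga
Ldb1, first start: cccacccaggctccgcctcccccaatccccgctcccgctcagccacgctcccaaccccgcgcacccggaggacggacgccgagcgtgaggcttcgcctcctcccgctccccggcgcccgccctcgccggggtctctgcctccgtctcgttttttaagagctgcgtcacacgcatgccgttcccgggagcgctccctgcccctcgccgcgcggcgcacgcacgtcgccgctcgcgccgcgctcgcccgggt
Ldb1, second start: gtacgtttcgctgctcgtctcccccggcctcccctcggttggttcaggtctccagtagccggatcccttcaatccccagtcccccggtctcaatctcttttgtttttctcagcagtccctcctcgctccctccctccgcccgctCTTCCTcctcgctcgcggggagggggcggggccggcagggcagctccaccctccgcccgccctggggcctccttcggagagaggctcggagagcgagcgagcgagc
Capitals mark matches on either strand to any of the motifs searched. The E-box was written as CANNTG, which includes its special form CAGATG. Sites for GATA factors were AGATAA or the variant AGATAG, or else TGATAA or the variant TGATAG. Sites for RUNX factors were TGTGGT or the variant TGCGGT, and the ETS core was AGGAAG. The Tal1 sequence holds 1 GATA site, written TTATCT on this strand, at positions −205 to −200 from the start. The accessible region at this start began 65 bp before it at the earliest, so the GATA site lay outside that region in all 6 lists. Lyl1 holds 1 E-box, CACCTG, at positions −235 to −230 from its start. At Ldb1 the first start has no match, and the second has 1 ETS core, CTTCCT, at positions −106 to −101. Among all 32851 listed starts, CANNTG occurred in 66.2%, CAGATG in 14.4%, a GATA site in 26.5%, a RUNX site in 18.6% and the ETS core in 29.5%. A match is a run of letters and shows no binding.

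Of the 67 regions, 32 were found in all 6 lists, 30 in 2 to 5 lists and 5 in a single list. Over the whole series 32.2% of regions were found in all 6 lists, against 47.8% near the 4 genes. By −log10 p the median region near the genes stood between the 56.0th and the 66.3rd percentile of its list. The part of this strength in the higher share was not tested. Tal1 had 6 regions in every list, Lyl1 11, Lmo2 8 and Ldb1 7. By list the numbers were, in HSC, 43 regions near the genes with wild type and 42 with knockout, in HPC 61 and 47, and in HSC of 16 weeks 62 with vehicle and 64 with 5-FU. The full lists held 40073, 48620, 65832, 52840, 80100 and 71363 regions in the same order, and read depth per sample was not known.

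The target gene of a region cannot be read from its position. Only 15 of the 67 regions lay in the member itself, 29 lay in another protein-coding gene, 4 in a noncoding gene alone and 19 in no gene. For Lyl1 17 of 24 were in other protein-coding genes, among them the neighbours Nfix, Trmt1 and Nacc1. Where a region weakened or disappeared in these bulk lists, fewer cells with it open and less opening in each cell cannot be told apart.

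**Figure D1:**
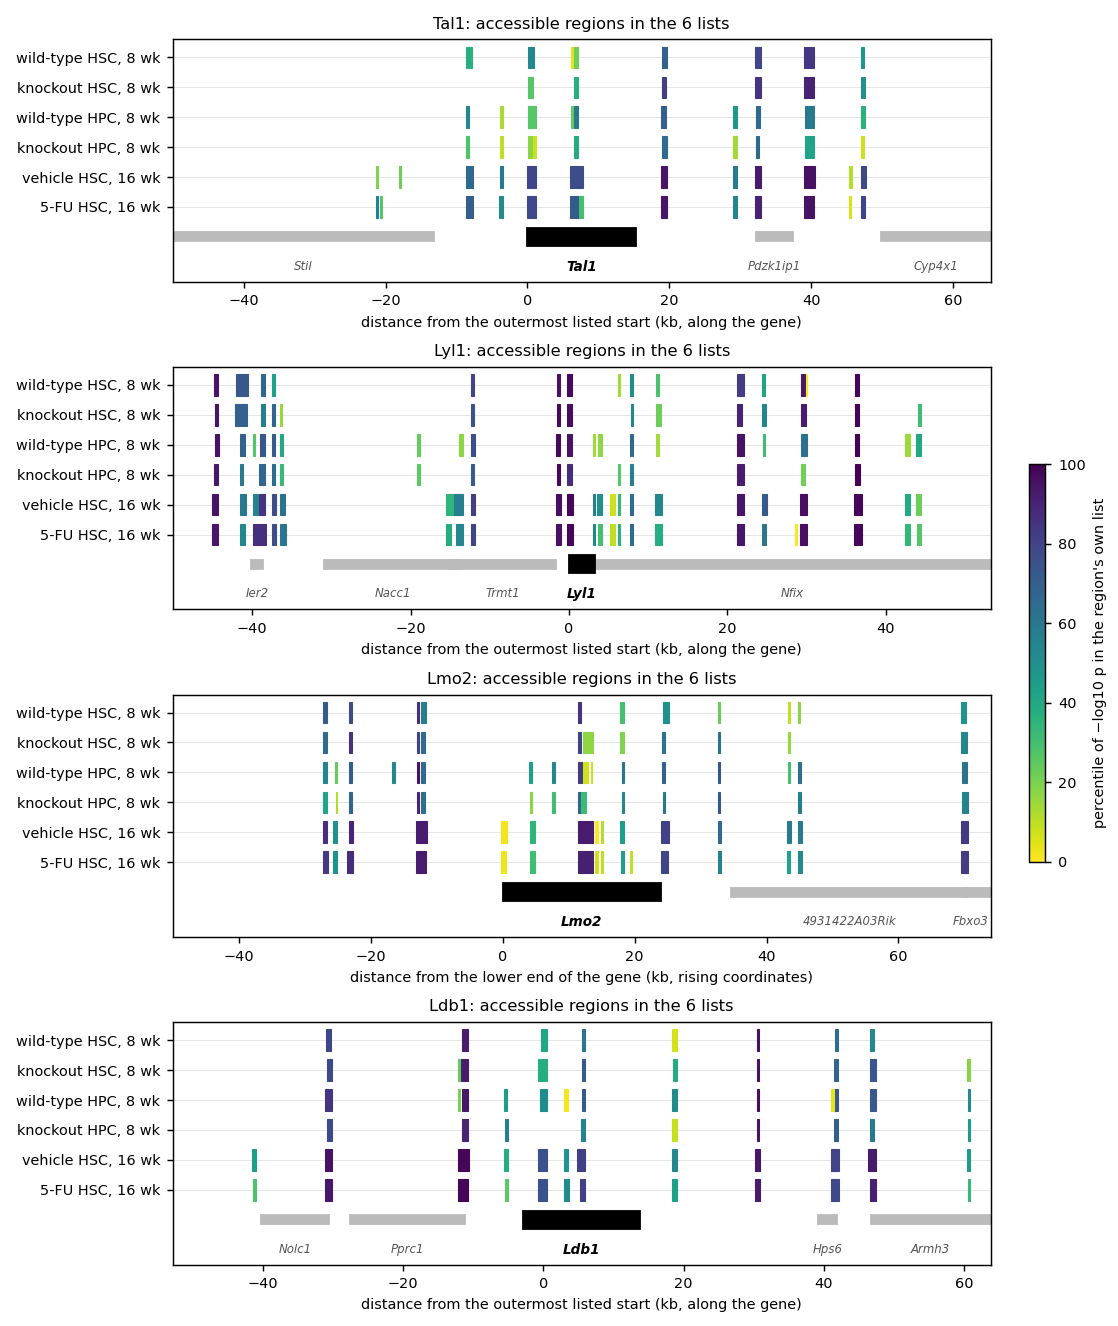
Accessible regions around the 4 genes in the 6 lists. The horizontal axis is the distance in kb from the outermost listed start along the gene (for Lmo2, from its lower end), each block is a region of that list, its colour gives the percentile of −log10 p within the list, and black and grey bars are the member and neighbouring protein-coding genes; 32 of the 67 columns of blocks run through all 6 lists.

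Tal1, a basic helix-loop-helix factor, lies at chr4:115056426-115071755. The values given here are the authors' fold enrichment, the signal at a summit over the local background of the same list, always in 1 order: HSC of wild type and knockout, HPC of wild type and knockout, and HSC after vehicle and 5-FU. A fold from 1 list is not on the same scale as that from another, and no list has a replicate. The percentile, also given below, is the place of a region by −log10 p among the regions of its own list, where 100 is the strongest.

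At the Tal1 start a region was found in all 6 lists, with folds of 8.76, 5.91, 6.91, 6.67, 7.76 and 8.22. Its percentile was 53.5 and 26.6 in HSC of wild type and knockout, 26.2 and 17.2 in the HPC of both genotypes, and 78.9 and 77.6 after vehicle and 5-FU, so its place was lowest in the HPC lists and knockout HSC. In the vehicle and 5-FU lists it covered the first listed start, beginning 65 and 63 bp before it. In the 8-week lists it began 24 and 33 bp past the start in HSC of wild type and knockout and 151 and 152 bp past it in the HPC lists, so the start itself was not covered there.

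The region 19.3 kb downstream of the Tal1 start, at chr4:115075311-115076130 in no gene, had the highest fold at Tal1 in each of the 6 lists. Its folds were 17.4, 20.5, 19.1, 18.5, 21.7 and 21.8, and its summits lay within 15 bp of each other. This is about the distance at which the known stem cell enhancer of Tal1 lies. A second region 40.0 kb downstream, near the distance of the erythroid enhancer, had folds of 9.47, 11.6, 9.88, 9.38, 8.93 and 9.05. Its summit was less fixed, with a spread of 701 bp over a region 1506 bp wide. The region 32.6 kb downstream covers the start of the neighbour Pdzk1ip1 and had folds of 15.5, 17.6, 14.3, 16.3, 15.7 and 15.6. The region at 47.3 kb was also in all 6 lists, with folds of 15.8, 17.2, 15.2, 9.96, 20.9 and 21.02, above those at 40.0 kb in each list but at a lower percentile, from 7.5 to 79.6. A region at 7.0 kb, inside the gene, completed those of all 6 lists, with folds from 6.67 to 11.1.

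Upstream of Tal1 the lists differed. The region 8.4 kb upstream, at chr4:115047779-115048688, was missing from knockout HSC and present in the other 5 lists, with a fold of 9.43 for wild-type HSC, folds of 13.1 and 10.3 for HPC of wild type and knockout, and 8.23 and 9.29 after vehicle and 5-FU. In wild-type HSC it was 2 separate regions at the 38.0th and 36.1st percentile. Absence from knockout HSC alone was found in 2 of the 67 regions, 2.985%, against 1.722% of all regions, and was not tested. The region 3.7 kb upstream was found in both HPC lists (5.35 and 6.02) and both 16-week lists (4.95 and 4.45) but in neither HSC list of 8 weeks. The region 29.3 kb downstream had the same pattern, with folds of 10.8 and 7.89 in the HPC lists and 6.23 and 6.13 in the 16-week lists. These last 2 regions were singled out after their values were seen.

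Lyl1, the close relative of Tal1, spans only 3.29 kb at chr8:84701423-84704716. Its start was covered in all 6 lists by a region with folds of 9.69, 9.09, 7.87, 6.68, 7.98 and 8.84. This was a strong region in every list, from the 87.1st percentile in knockout HPC to the 99.0th in 5-FU HSC. A region 1.3 kb upstream was as strong in rank, from the 95.5th to the 97.8th percentile, with folds from 6.69 to 11.03. Both stood above the Tal1 start region in percentile in each of the 6 lists.

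The region of highest fold in the Lyl1 window lay 36.4 kb downstream inside Nfix, at chr8:84737424-84738426, with folds of 25.2, 28.0, 26.5, 28.2, 21.7 and 24.2. It ranked between the 98.6th and the 99.6th percentile of each list. A region 44.5 kb upstream ranked between the 94.4th and the 95.2nd percentile, and one 21.5 kb downstream, over the start of G430095P16Rik, between the 82.7th and the 95.3rd. A region 29.6 kb downstream, also inside Nfix, had a wider range of percentiles. Its folds were 17.7 and 15.6 in wild-type and knockout HSC, 10.5 and 7.72 in wild-type and knockout HPC, and 14.1 and 15.6 in vehicle and 5-FU HSC. Its percentile was 91.9 or more in every HSC list, 62.9 in wild-type HPC and 21.8 in knockout HPC.

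Lmo2, the bridging protein, lies at chr2:103957903-103981878, and its distances are counted from the lower end of the gene towards higher coordinates. At that end a region was found only in the 16-week lists, with folds of 3.67 and 3.73, at the 2.2nd and 3.0th percentile. Inside the gene, at 11.7 kb, a region of all 6 lists had folds of 9.69, 7.73, 10.1, 8.23, 7.88 and 7.96 and percentiles from 68.8 to 92.9. It was the strongest region inside Lmo2 by percentile in each list. Outside the gene the region of highest mean percentile lay 12.8 kb below the lower end, with folds of 15.2, 12.5, 14.8, 12.7, 12.3 and 12.7 and percentiles of 80.2 or more. Regions at 23.0 and 27.0 kb below the lower end and at 24.5 kb above it were likewise found in all 6 lists.

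Some regions in the Lmo2 window were found in only some of the lists. A region at 7.8 kb, inside the gene at chr2:103965373-103965804, was found in both HPC lists, with folds of 6.95 and 5.93, and in no HSC list. A region 16.5 kb below the lower end was found in wild-type HPC alone, at a fold of 5.67 and the 53.8th percentile. It was the only 1 of the 67 with that pattern, 1.49% against 4.88% of all regions. The region at 45.0 kb was missing from knockout HSC alone, with folds of 11.6 in wild-type HSC and 19.5, 20.1, 15.1 and 14.6 in the remaining lists. Only 1 further region was found in both HPC lists and no HSC list, 19.0 kb upstream of Lyl1 in Nacc1, with folds of 7.37 and 9.03. Together these were 2 of the 67, 2.985% against 4.016% of all regions.

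Ldb1, the protein that joins complexes, lies on the minus strand at chr19:46031525-46048145. Distances are counted from its outermost listed start, called the first, at position 46045311, which lies inside these bounds and not at their upper end. The region over the first Ldb1 start was found in 5 of the 6 lists, with folds of 8.00 and 7.09 for HSC of wild type and knockout, 8.33 for wild-type HPC and 7.17 and 7.36 after vehicle and 5-FU, and it was missing from knockout HPC. Absence from knockout HPC alone was found in 4 of the 67 regions, 5.97%, against 2.405% of all regions, and was not tested. The region over the second Ldb1 start, 5.7 kb downstream, was found in all 6 lists at 11.3, 12.5, 12.0, 10.3, 9.35 and 9.83. The upstream sequences of these starts, shown above, are those without a match and with the ETS core. No region of any list covered the third listed start, at position 46037070.

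The highest fold near any of the 4 genes was at Ldb1, in a region 30.6 kb downstream of its first start at chr19:46014415-46015161, in no gene. Its folds were 41.5, 41.9, 44.8, 40.5, 36.3 and 35.7, and its percentile lay between 92.8 and 96.8. A region 11.2 kb upstream over the start of Pprc1 ranked between the 90.1st and the 98.7th percentile, and another 30.6 kb upstream over the start of Nolc1 between the 78.0th and the 95.5th. The regions over the starts of Hps6 and Armh3, at 41.8 and 47.0 kb downstream, were found in all 6 lists too. Starts of other genes therefore made up 4 of the 12 regions in the Ldb1 window.

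**Figure D2:**
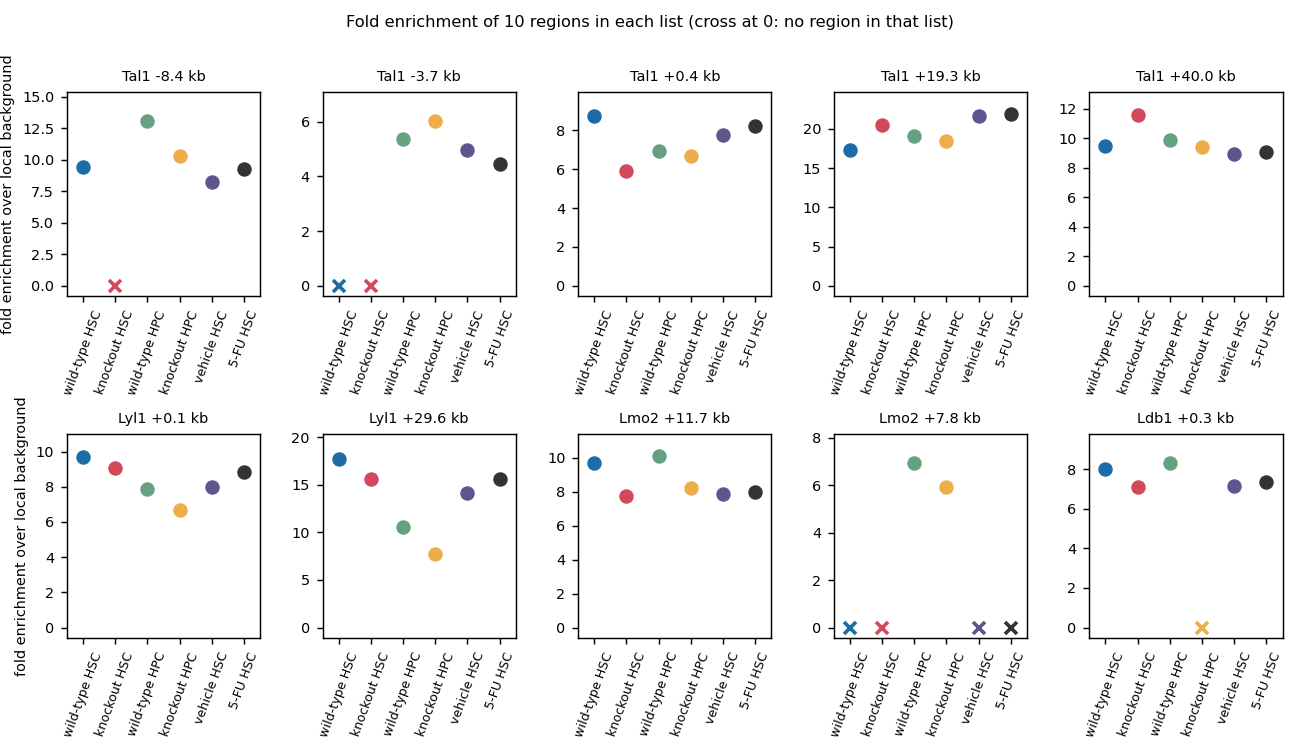
Fold enrichment over the local background for 10 regions, chosen after their values were seen, in the 6 lists. Each point is 1 list, a cross at 0 marks a list with no region there, and the vertical axes differ between panels; the Lmo2 region at 7.8 kb appears only in the 2 HPC lists, whereas the Tal1 region at 19.3 kb lies between 17.4 and 21.8 in all 6.

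Regions with the same summit in every list were as frequent near the 4 genes as elsewhere. Of the 32 regions found in all 6 lists, 26 had summits within 50 bp of each other, or 81.25%, against 80.97% of the 30314 such regions of the series. The median spread of the summit was 22.5 bp near the genes and 23.0 bp over all.

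In HSC of 8 weeks, knockout was set against wild type to see which regions accompany the loss of Kmt2c. A region was called absent from another list when no region there overlapped it by 1 bp or more. Near the 4 genes 5 of 42 knockout regions were absent from wild type, 11.9% with a 95% Wilson interval of 5.19 to 25, against 25.9% of all knockout regions. In the other direction 5 of 43 wild-type regions were absent from knockout, 11.6% (5.07 to 24.5), against 9.99%. The 2 directions were equal in number near the 4 genes only for the lists as deposited, which differ in length. Of the wild-type regions 2 were parts of the region 8.4 kb upstream of Tal1. With both lists set to the same number of strongest regions, the first share was 3 of 39, or 7.69%, against 15.3% of all. The second was then 6 of 43, or 14.0%, against 15.1%. Regions near the genes had a median percentile of 66.3 in the knockout list, and the part of strength in the first share was not tested. The intervals count regions only, and neighbouring regions are not independent. With no replicate lists there was no test of any of these shares.

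The regions on either side were weak and had different neighbours. Those of the knockout alone reached at most the 31.2nd percentile and were led by the region 44.4 kb downstream of Lyl1 in Nfix, with a fold of 9.87, by a separate region beside the Pprc1 start with 6.11, and by the region 60.7 kb downstream of the Ldb1 start in Armh3 with 12.7. Those of wild type alone reached at most the 38.0th percentile and were led by the 2 regions 8.4 kb upstream of Tal1 and by the Lmo2 region at 45.0 kb. All 5 knockout regions and all 5 wild-type regions were found again in both the vehicle and the 5-FU list. This was near the share over all such regions, 93.26% and 85.31% for those of knockout and 96.0% and 90.26% for those of wild type. On each side some were parts of regions found in all 6 lists. These parts overlap wider vehicle and 5-FU regions, so finding them again was no separate result. None of the 67 regions was in both knockout lists and no wild-type list, a pattern of 0.0287% of all regions, and none was in all 4 wild-type lists and neither knockout list, a pattern of 0.847%.

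In HPC the wild-type list was the longer. Of 61 wild-type regions near the genes 16 were absent from knockout, 26.2% (16.8 to 38.4), and the share over all wild-type HPC regions was 25.9%. Some of the 16 were parts of regions found in all 6 lists, such as that 7.0 kb downstream of the Tal1 start. Of 47 knockout regions 1 was absent from wild type, 2.13% (0.377 to 11.1), against 6.96% of all. The first member share was near that of its list, and the second was lower, with the share of its list inside the interval. With both lists set to the same number of strongest regions, the first share was 15.7%, against 13.5% of all, and the second 4.3%, against 12.7%. The regions missing from knockout HPC were led by the one 16.5 kb below Lmo2, by the region over the first Ldb1 start, at the 50.9th percentile, and by that 44.4 kb downstream of Lyl1, at the 40.0th. The 1 region of knockout HPC alone lay 6.3 kb downstream of Lyl1, with a fold of 4.12.

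A pair of weak regions near Lyl1 was listed under opposite genotypes in the 2 cell types. The region at 6.3 kb was found in wild-type HSC and knockout HPC, and that at 44.4 kb in knockout HSC and wild-type HPC. This crossed pattern made up 2.64% of all 94178 regions, and it was not tested.

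Repeated 5-FU was set against vehicle in HSC of 16 weeks. Near the 4 genes 3 of 64 regions of the 5-FU list were absent from vehicle, 4.69% (1.61 to 12.9), against 5.61% of all. Of 62 vehicle regions 1 was absent from the 5-FU list, 1.61% (0.285 to 8.59), against 16.2% of all vehicle regions. With equal numbers of the strongest regions the latter shares were 1.695% and 9.405%, and for the 5-FU list 9.38% and 8.93%. Nearly every region around Tal1, Lyl1, Lmo2 and Ldb1 was therefore in both lists. The 3 of the 5-FU list were 20.6 kb upstream of Tal1 in Stil with a fold of 7.94, at 19.5 kb in Lmo2 with 1.99, and 28.6 kb downstream of Lyl1 in Nfix with 1.78. The 1 of the vehicle list lay 18.0 kb upstream of Tal1, also in Stil, with a fold of 7.26. Regions near the genes were stronger than the list as a whole, with a median percentile of 65.8 in the vehicle list, and the part of strength in the low share was not tested.

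**Figure D3:**
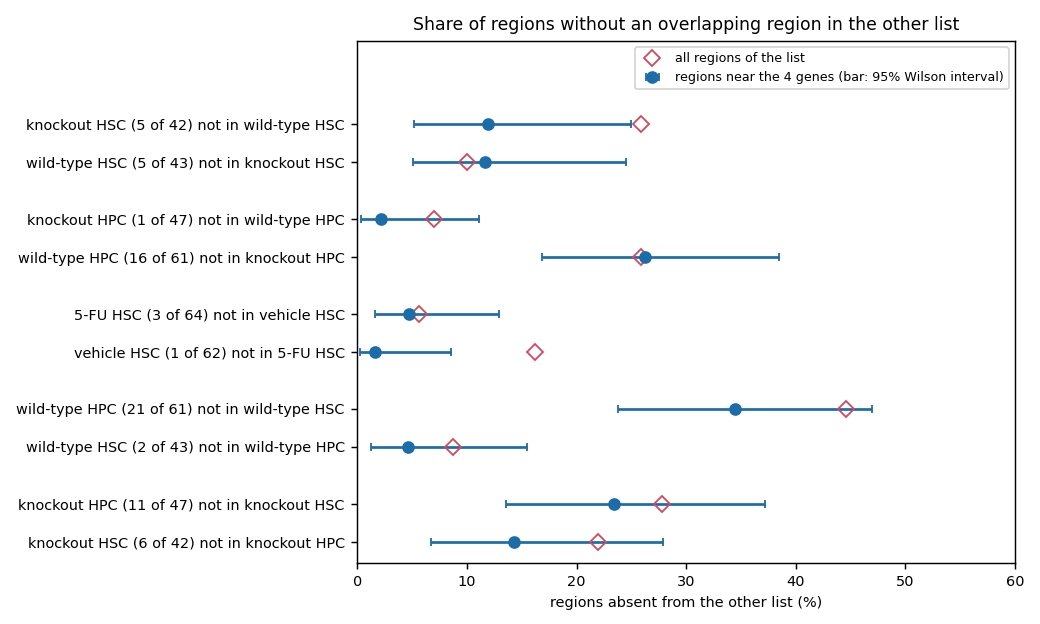
Share of the regions of one list with no overlapping region in the other, in percent, for the 5 comparisons in both directions. Filled points are the regions near the 4 genes with 95% Wilson intervals and open diamonds all regions of the list; in 8 of 10 cases the diamond lies inside the interval, the exceptions being knockout HSC against wild type (25.9%) and vehicle against 5-FU (16.2%), both for lists of unequal length.

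Between stem cells and progenitors of wild type, 21 of 61 HPC regions near the 4 genes were absent from HSC, 34.4% (23.7 to 47.0), against 44.6% of all HPC regions. Only 2 of 43 HSC regions were absent from HPC, 4.65% (1.29 to 15.5), against 8.77%. The HPC list was the longer, and with equal numbers of regions the shares became 19.0% and 18.6%, against 24.3% and 23.7% of all regions. The strongest of the HPC regions were the Lmo2 regions 16.5 kb below the gene and 7.8 kb inside it, and the region in Armh3, with percentiles of 53.8, 53.7 and 53.0. Of the 21 regions 18 were found in the vehicle list and 18 in the 5-FU list, both made from HSC, against 66.47% and 59.24% of all such regions. Some of the 21 were parts of regions found in all 6 lists, such as those beside the Pprc1 start and in the Lmo2 region at 11.7 kb. These parts overlap wider vehicle and 5-FU regions, so finding them again was no separate result.

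In knockout 11 of 47 HPC regions were absent from HSC, 23.4% (13.6 to 37.2), against 27.8% of all, and 6 of 42 HSC regions were absent from HPC, 14.3% (6.72 to 27.8), against 21.9%. The HPC regions were led by the Lmo2 region at 45.0 kb, with a fold of 20.1, by a region 5.4 kb upstream of Ldb1 with 17.8, and by the Lmo2 region at 7.8 kb. The HSC regions were led by one 24.7 kb downstream of Lyl1 with a fold of 5.60, by the first Ldb1 start, and by the region 44.4 kb downstream of Lyl1. None of the 67 regions was found in all 4 HSC lists and in neither HPC list, a pattern held by 1.83% of all regions. The pattern of both HPC lists and no HSC list was held by 2 of 67, against 4.02% of all. A further 5 regions were in both HPC lists and both 16-week HSC lists but in neither 8-week HSC list, 7.46% against 4.42%, namely 2 at Tal1, 2 at Lmo2 and that upstream of Ldb1. The 16-week lists also alone held 8 regions, 11.9% against 10.8%. Age, treatment by injection, the number of samples and the length of the list differ together between the 8-week and 16-week groups and cannot be told apart.

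Presence in a list says little about the regions shared by all. The 32 regions found in every list were therefore also ordered by −log10 p within each list, among the 30314 such regions of the series. This order, its step of 20 points and the grouping of the lists were chosen after the data were seen. In 6 of 32 regions every HSC list stood at least 20 percentile points above both HPC lists, against 3.95% of the 30314, and in 0 of 32 both HPC lists stood that far above every HSC list, against 6.30%. Ordered by fold enrichment instead, the counts were 1 of 32 and 1 of 32, against 2.77% and 3.44%, so the excess depends on which value orders the list. The 1 region left was that 29.6 kb downstream of Lyl1, and the 1 in the other direction was that 21.5 kb downstream of Lyl1.

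Of the 6 regions, 3 lay downstream of Tal1, 2 below Lmo2 and 1 downstream of Lyl1. At 40.0 kb from Tal1 the percentile among the shared regions was 79.4 and 84.6 in HSC of wild type and knockout and 88.4 and 89.1 after vehicle and 5-FU, but 27.4 and 21 in the HPC lists of both genotypes. At 29.6 kb from Lyl1 it was 91.6, 87.1, 90.5 and 92.1 in the HSC lists in that order, and 32.0 and 6.9 in the HPC lists. These were the widest gaps, 52.0 and 55.1 points between the lowest HSC list and the higher HPC list. The other 4 were near the step: 24.7 points at 32.6 kb from Tal1, 24.3 and 21.2 points at 27.0 and 23.0 kb below Lmo2, and 20.6 points at 47.3 kb from Tal1. The region at 19.3 kb from Tal1 fell outside it at 13.5 points. Ordered by fold, the region at 40.0 kb from Tal1 did not pass the step.

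**Figure D4:**
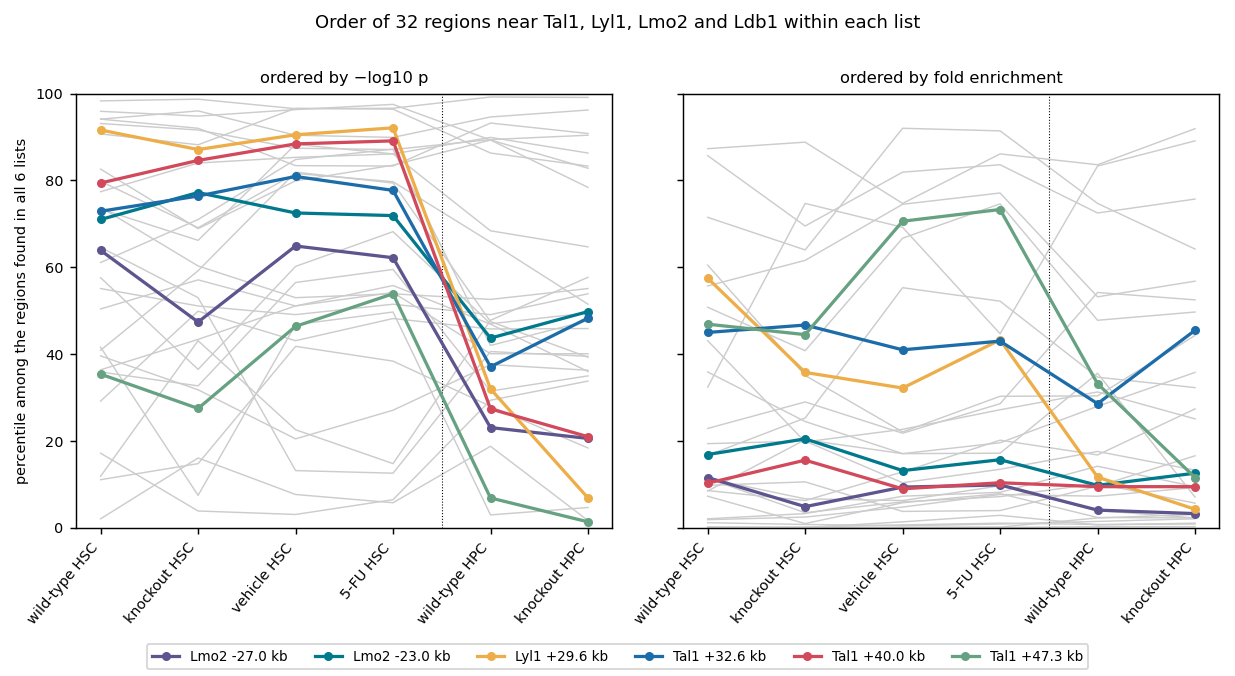
Percentile of 32 regions among the regions found in all 6 lists, ordered by −log10 p on the left and by fold enrichment on the right. Each line is a region, the dotted line separates the 4 HSC lists from the 2 HPC lists, and the coloured lines are the 6 regions that stand at least 20 points higher in every HSC list by −log10 p; on the right only the Lyl1 region at 29.6 kb keeps that gap.

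By the same order, knockout HSC stood at least 20 points above wild-type HSC in 2 of 32 regions, against 4.89%, and below it in 2, against 4.55%. The region at the Tal1 start was 1 of the latter, at 41.6 in wild-type HSC and 7.5 in knockout HSC. The Lmo2 region at 32.8 kb was 1 of the former, at 11.9 and 43.1. Of these 4 regions only the one at 32.8 kb passed the step when ordered by fold. In HPC 0 of 32 regions were higher in knockout, against 2.68%, and 1 in wild type, against 2.64%. With 5-FU 0 of 32 were higher, against 0.594%, and 0 of 32 lower, against 0.983%. Wild-type HSC stood above wild-type HPC in 9 of 32 regions, against 12.6%, and below it in 1, against 13.7%. In knockout HSC stood above HPC in 8 of 32, against 12.7%, and below it in 1, against 13.9%. By fold these 4 counts were 2, 3, 2 and 2, against 12.7%, 13.6%, 11.8% and 12.1%, so neither direction exceeded the share over all regions.

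The number of separate regions of each list around the genes varied with the gene. Lyl1 had 15 regions in wild-type HSC, the 98.7th percentile of all protein-coding genes counted with the same 50 kb on each side, and between the 93.8th and the 98.5th percentile in the remaining lists. Tal1 had 9 in wild-type HSC, 6 in knockout HSC, 10 and 10 in the HPC lists, 12 in vehicle and 13 in 5-FU. Lmo2 had 11, 11, 17, 14, 15 and 16, and Ldb1 8, 10, 13, 9, 12 and 12. The median gene had 4, 5, 6, 5, 7 and 7. All 4 genes thus lay above the median in each list.

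Genes with the most similar counts over the 6 lists were found by the summed difference of counts. Camsap2 had the same counts as Ldb1, and Usp10 and Ccnjl differed from it by 1 region. Yif1b and 2200002D01Rik differed from Tal1 by 2 regions and Acbd4 by 3. Slc36a3 and Ly86 differed from Lmo2 by 2 and Rexo1 by 3. For Lyl1 the nearest were Flrt1 at 4, St6galnac6 at 5 and Plekha6 at 5.

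Other genes that work with the complex were counted from a list of 21, which holds the E proteins, GATA factors, Runx1, the ETS factors Erg and Fli1, relatives of the members, the Ssbp proteins that stabilise Ldb1, and corepressors. The counts given for these genes are of regions found in only 1 list of the pair compared, not of all regions near a gene. At 15 of 21 genes more regions were found in knockout HSC only than in wild-type HSC only, and at 0 fewer. The shares over protein-coding genes were 57.0% and 11.3%, of the 18314 genes counted for this pair. Between 18314 and 18885 genes were counted in each pair, called all genes below. The median net difference was 1.0 region in the list and 1.0 over all genes. Runx1, a master factor of blood stem cells, had 4 such regions of knockout and 0 of wild type, Cbfa2t3, a corepressor bound by the complex, 3 and 0, and Gfi1b, a repressor of red cell and platelet precursors, 4 and 1. Cbfa2t2, a relative of Cbfa2t3, had 4 and 1. In HPC 0 of 21 genes had more regions of knockout only, against 6.26%, and 16 had more of wild type only, against 69.1%. The median net difference, knockout less wild type, was −3.0 regions in the list and −1.0 over all genes. Ssbp3 had 6 regions of wild type only and 0 of knockout only, Gata2 5 and 0, Fli1 7 and 2 and Runx1 7 and 2. Both directions followed the longer list of the pair.

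With 5-FU 2 of the 21 genes had more regions of the 5-FU list alone, against 10.8%, and 15 more of the vehicle list alone, against 53.9%. The median net difference was −1.0 both in the list and over all genes. Gata2 and Ssbp4 were the 2, each with 1 and 0, and Fli1 and Kdm1a, a histone demethylase, had 1 region of 5-FU only and 5 of vehicle only. Ldb2, the relative of Ldb1, had 0 and 4, and Cbfa2t3 0 and 3. Regions of wild-type HPC only outnumbered those of wild-type HSC only at 18 of 21 genes, against 83.2%, and were fewer at 0, against 3.27%. Here the median net difference was 4.0 regions in the list and 2.0 over all genes. Of such regions Runx1 had 16 and 0, Ssbp3 11 and 1, Erg 11 and 2 and Fli1 8 and 1. These 4 genes are long, from 121229 to 227432 bp, so their windows are wide, and gene length was not taken into account. In knockout 6 of 21 had more regions of HPC only, against 44.0%, and 8 more of HSC only, against 27.8%, with a median net difference of 0.0 in both the list and all genes. By the same count Runx1 had 9 and 2, Erg 10 and 4, Ssbp3 5 and 2 and Ssbp2 4 and 2, whereas Tcf3, an E protein, had 0 and 5, Cbfa2t2 1 and 4, Gata3 0 and 3 and Ssbp4 1 and 4.

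Genes known as targets of the complex were a list of 10. Regions found in only 1 list of the pair were again counted. Knockout HSC had more than wild-type HSC at 8 of 10 and fewer at 0, against 57.0% and 11.3% of all genes. Kit, the stem cell factor receptor, had 4 regions of knockout only and 0 of wild type only, Slc4a1, the red cell anion exchanger, 4 and 0, Hhex, a homeobox factor, 3 and 0, and Nfe2, a factor of platelet formation, 3 and 0. In HPC the regions of knockout only were more at 1 of 10, against 6.26%, and fewer at 6, against 69.1%. The 1 was Gp9 with 2 and 0, and of the 6 Nfe2 and Slc4a1 had 0 and 5, Kit 0 and 4 and Klf1 0 and 3. With 5-FU 1 of 10 had more, against 10.8%, and 6 had fewer, against 53.9%. The 1 was Nfe2 with 2 and 1, and the 6 were led by Kit and Klf1 with 0 and 3 each, Alas2 with 0 and 2 and Gp9 with 0 and 1. Regions of wild-type HPC only outnumbered those of wild-type HSC only at 9 of 10 and were fewer at 0, against 83.2% and 3.27%. Among the 9 were Kit and Klf1 with 7 and 1 each, Nfe2 with 6 and 0 and Hhex with 5 and 0. In knockout the regions of HPC only were more at 4 of 10, against 44.0%, among them Gp9 with 3 and 1, Hhex with 3 and 1 and Klf1 with 3 and 2. They were fewer at 6, against 27.8%, among them Slc4a1 with 0 and 4, Kit with 2 and 4 and Nfe2 with 0 and 2. The median net differences were 2.0, −2.5, −1.0, 3.5 and −1.0 regions in that order, against 1.0, −1.0, −1.0, 2.0 and 0.0 over all genes. They are taken as knockout less wild type, 5-FU less vehicle and HPC less HSC. All but the last followed the longer list of the pair.

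The labels were set beside marker genes, counting those with a region over a listed start. Of 7 stem cell markers with a listed start 3 and 4 were covered in HSC of wild type and knockout, 6 and 5 in HPC of wild type and knockout, and 7 and 6 after vehicle and 5-FU. Over all genes with a listed start the shares were 47.03%, 50.14%, 53.48%, 48.82%, 61.14% and 59.57% in that order, so the counts in the 8-week HSC lists were near the background. Of 3 markers of tissues outside blood none was covered in any list, and of 4 markers of mature blood S100a8 alone was covered, in knockout HSC and wild-type HPC. Of 4 erythroid and megakaryocyte markers with a listed start the same 2 were covered in all 6 lists, near the shares over all genes. Of 4 progenitor markers with a listed start 1 was covered in each 8-week HSC list and 3 in each of the other 4 lists: Flt3 in all 6, Cd48 and Il7r in both HPC lists and both 16-week HSC lists alone, and Mpo in none. The stem cell marker Slamf1 was covered in the same lists as Cd48 and Il7r. Those are the lists that held the 5 regions near Tal1, Lmo2 and Ldb1 described above. Their part in that pattern was not tested.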

How the data were processed

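Chromatin accessibility was measured by ATAC-seq in 18 samples of 6 groups. The labels tie 1 deposited peak list to each group, which was taken as pooled. Per the submitters' processing notes, Bowtie2, MACS2 and the build mm10, also called GRCm38, were used. Not given in the sources used here: versions, the pooling and the list filter. The deposited fold enrichment is a ratio of summit signal to local background. The deposited −log10 p grows with depth, which is unknown. The deposited score was not used. Summit positions are deposited as bp from the start of a row.

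Overlapping rows of a list were merged into regions, and regions of the 6 lists into union regions, with Python 3.11.15, pandas 2.3.3 and numpy 2.4.6. Fold enrichment and percentile come from the row or region with the highest −log10 p. Absence meant no overlap of 1 bp or more. The RefSeq gene table of GRCm38.p6 gave 21887 genes that code for proteins. Overlap counts were checked on simulated lists. With 1 list per group there was no test, and shares carry 95% Wilson intervals for counting error only. Signal tracks were not analysed here.

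The 4 genes, the gene lists and the rules were chosen with earlier results of these data known. Regions named one by one were those over a member's start, up to 5 per gene in all 6 lists with the highest mean percentile, those of the cell or genotype classes, and up to 3 per comparison and direction by percentile. From the partner and target lists up to 4 genes with the largest net count were named, except for some target genes that are not reported here, and for likeness the 3 genes with the smallest summed difference. Other regions were chosen after their values were seen. The alternatives were a summit within 200 bp, a gap of 1 kb, equal numbers of regions, the weakest 25% removed and windows of 10 and 100 kb.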

Additional observations from a re-analysis of the deposited data

Results flagged for a closer look

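The region 6.3 kb downstream of the Lyl1 start, in Nfix, was listed under opposite genotypes in the 2 cell types. It had a fold enrichment of 3.68 in wild-type HSC and 4.12 in knockout HPC, and was in neither knockout HSC nor wild-type HPC. The region 44.4 kb downstream of the Lyl1 start, also in Nfix, had the opposite pattern, with a fold of 9.87 in knockout HSC and 8.64 in wild-type HPC. Both were found in the vehicle and 5-FU lists. Their percentiles in the 8-week lists ranged from 14.0 to 40.0. The difference between the cell types was not tested, since each group has 1 list, and the same crossing occurred in 2485 of 94178 regions, 2.64%.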

How the results depend on the processing

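Of 62 recomputed shares and counts for the comparisons, 53 stayed within the interval of the value reported or within 1.5 times the count. Of 10 further counts from the pairs of lists, ordered by fold enrichment in place of −log10 p, 3 stayed within 1.5 times and 7 did not. With absence defined as no region within 1 kb, the share of knockout HSC regions absent from wild type became 4.76% (all regions 23.5%) and that of 5-FU regions absent from vehicle 0% (all 4.49%). With equal numbers of the strongest regions, 15.7% of wild-type HPC regions were absent from knockout (all 13.5%) and 19.0% from wild-type HSC (all 24.3%), and in the reverse of the latter 18.6% were absent (all 23.7%); these lists were shortened by construction. The share of vehicle regions absent from 5-FU became 0% with the weakest 25% of regions removed (all 13.3%) and 0% with a window of 10 kb (all 16.2%), which hold fewer regions. Ordered by fold enrichment, an alternative chosen after the data were seen, the count of regions higher in every HSC list went from 6 to 1 and that of regions higher in both HPC lists from 0 to 1, and the cause was not tested. The window of 10 kb moved 8 of 8 counts of regions per gene, and with 100 kb Tal1 had 23 regions and Lmo2 32. With the weakest 25% removed, Tal1 had 3 regions in all 6 lists. No paired analysis was possible because each group has 1 pooled list and no values per replicate. For the same reason no replicate was left out in turn. A region missing from a list may lie below its threshold at that list's depth, which is unknown, so absence from a list is not closed chromatin.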
